A study of Mus musculus with 8 samples.

Results

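Rfx2 peaks whose summit lay within 1 kb of a transcription start site (TSS) were examined together with the genes that start there. Of the 337 peaks in the Rfx2 list, 325 were on chromosomes 1 to 19. Of these, 263 had a summit within 1 kb of a TSS of a curated mm10 RefSeq transcript, protein-coding or not, and 62 did not. The 263 peaks lay at the starts of 329 genes, of which 306 were protein-coding. The position of the summit chose the peaks, so their nearness to a TSS is a description and not a result.

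The study profiled the epidermis of newborn wild-type mice. Back skin was taken at postnatal day 0.5, the epidermis was detached from the dermis with dispase, and all of its cells were used without sorting. Rfx2 and the histone marks H3K4me3 and H3K27Ac were mapped by Cut&Run, which cuts chromatin with a nuclease tethered to the antibody. MOF was mapped by ChIPseq on fixed and sheared chromatin. All these groups shared the genotype, tissue and age, and no treatment or mutant was among them. Each antibody gave 1 peak list here, so no spread between replicates exists and no test across replicates was possible. The 95% intervals below are exact (Clopper-Pearson) and reflect the counting of peaks or genes alone. The lists give no read counts. The MOF list held 17546 regions, more than the study's own count, and may be another or an unfiltered call. The H3K4me3 list held 27039 peaks. The H3K4me3 list may stem from either of the 2 H3K4me3 libraries.

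RFX proteins are transcription factors that bind the X-box, an element made of 2 inverted arms close to GTTGCC and GGCAAC. They are best known for switching on genes of the cilium, the antenna or beating organelle built on the centriole. MOF (KAT8) is an acetyltransferase that modifies lysine 16 of histone H4, and H3K4me3 and H3K27ac are marks of active promoters.

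Sequences that carry the element RFX proteins bind are shown first. Most of the 25 strongest peaks did not hold it within 100 bp of the summit, and wider windows were not counted for these 25. The X-box was searched on both strands within 100 bp of the Rfx2 summit, in a degenerate form whose arms are 0 to 3 bases apart. It was present at 34 of the 263 peaks (12.9%, 95% interval 9.12 to 17.6%). H3K4me3 peaks at a TSS that held no Rfx2 peak served as background, and 0.535% of those 13636 peaks had an X-box in a window of the same length around their summit. The share depended on the window. It was 5.32% within 50 bp and 26.996% within 250 bp, where the background had 0.301% and 1.36%. The 12 strongest peaks with an X-box are given below 5′ to 3′ on the strand named, with the X-box in capitals and its mm10 position.
B9d2 (chr7:25680796-25680809, plus strand): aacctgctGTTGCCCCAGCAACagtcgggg
Dyrk1b (chr7:28179894-28179906, plus strand): gcttcgctGTCGCCTAGCAACagctgccc
Ift57 (chr16:49699234-49699246, plus strand): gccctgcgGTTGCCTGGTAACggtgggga
Nap1l1 (chr10:111473093-111473105, plus strand): acggctctGTAACCAGGCAACaaggccca
Chd4 (chr6:125095944-125095957, minus strand): gcgcgcgcGTCACCTGGGCAACcgcccacc
Gm15728 and Rfc5 (chr5:117389116-117389128, minus strand): cgcctaggGTTACCTAGCAACcagcacct
Josd2 (chr7:44468238-44468250, minus strand): cttttcctGTCACCTGGCAACcaggcaca
Cinp and Tecpr2 (chr12:110889225-110889238, plus strand): cctaacccGTTGCCTAGGCAACaggctccc
Cyth2 (chr7:45814749-45814761, plus strand): ccgcagtgGTTGCCAAGCAACtgcgagcc
Gtf2ird2 (chr5:134184615-134184627, plus strand): ccatcgcgGTTGCCTAGCAACggcgctct
Ccdc151 and Prkcsh (chr9:22002793-22002804, plus strand): tcgctggcaGTGGCCAGTAACccgccactc
Mapk7 (chr11:61494604-61494617, plus strand): ggaggggtGTTACCTAGGCAACaagctccg

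The genes beside these X-boxes had diverse functions. Among them were the ciliary genes B9d2, Ift57 and Ccdc151, but also Dyrk1b (a protein kinase), Nap1l1 (a histone chaperone), Chd4 (an ATPase of the NuRD remodelling complex), Rfc5 (a subunit of the DNA replication clamp loader), Josd2 (a deubiquitinase) and Mapk7 (the MAP kinase ERK5). A wider form, GTTNC and GNAAC separated by 2 to 5 bases, was added after the data had been seen, because arms ending in GTTGCT were common. It was found at 40 peaks (15.2%, 11.1 to 20.1%), against 0.983% of the background. Either form was present at 55 peaks (20.9%, 16.2 to 26.3%) and at 1.36% of the background. Of the 9 strongest peaks that held only the wider form, 8 are shown, Rfx2's own start among them, with the element in capitals.
Rpp38 (chr2:3332766-3332779, plus strand): agtctgtgGTTGCTGTAGTAACcagcctct
Dstn (chr2:143915449-143915461, plus strand): gccggcctGTTGCGTAGCAACggtgggcg
Odf2l (chr3:145118602-145118613, plus strand): cgcaggccgGTTACTAGCAACgttgagctc
Lztfl1 (chr9:123717605-123717619, plus strand): gccgcgcGTTGCCAATGGGAACggagaca
Rfx2 (chr17:56831110-56831124, plus strand): gcggggcGTTGCGCCCGGCAACggttacc
Enkur and Thnsl1 (chr2:21205364-21205377, plus strand): accacgtgGTTGCTAAGGAAACagttgcta
Tmem109 (chr19:10881488-10881500, plus strand): cgcccctgGTTGCATAGCAACgaggatct
Slc38a6 and Trmt5 (chr12:73287020-73287032, plus strand): tggagtccGTTGCTAAGCAACgtaagtgg

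The strongest peak of all, at Mast3, held neither form within 100 bp of its summit. It carried GTTGCT, a single arm, at 2 positions within 50 bp of the summit, shown in capitals.
Mast3 (chr8:70792624-70792724, plus strand): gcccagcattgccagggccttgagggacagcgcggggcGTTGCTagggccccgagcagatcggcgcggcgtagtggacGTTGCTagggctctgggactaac

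Single arms were more frequent than whole X-boxes. An arm (GTTGCC or GTTGCT, or either word with TAC in place of TGC) lay within 100 bp of the summit, on either strand, at 154 of the 263 peaks (58.6%, 52.3 to 64.6%). The background share was 22.0%. GTTGCC was found at 30.04% of peaks against 8.08%, GTTGCT at 26.2% against 8.10%, and the 7-letter word GTTGCTA, which overlaps GTTGCT, at 16.7% against 1.17%. When all words of 6 letters were ranked by the difference between the peaks and the background, GTTGCC and GTTGCT came first and second, and the next 3 overlapped them. The windows had the same median GC content as the background (62.7%). Near the 62 Rfx2 peaks away from a TSS, 48.4% (35.5 to 61.4%) had an arm and 27.4% (16.9 to 40.2%) had either form of the X-box. Both intervals overlapped those of the peaks at starts. An H3K4me3 peak was overlapped by 49 of the 62, so most of them were not outside chromatin with the promoter mark.

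The arms were set off from the summit. Per 100 peaks, 15.2 arms lay within 25 bp of the summit, 28.1 lay between 75 and 100 bp and 27.4 between 100 and 125 bp. Beyond 225 bp the density was between 4.94 and 9.51, near the background, which stayed between 5.65 and 7.16 arms per 100 peaks and 25-bp bin.

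**Figure D1:**
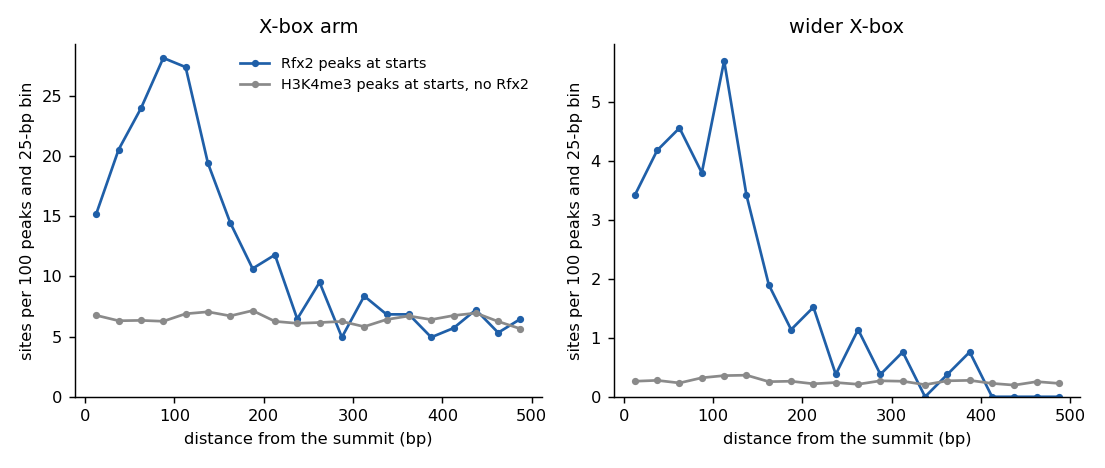
Density of single X-box arms (left) and of the wider X-box (right) against the distance from the summit, as sites per 100 peaks in bins of 25 bp, for 263 Rfx2 peaks at starts and 13636 H3K4me3 peaks at starts without Rfx2. Arms were most frequent 75 to 125 bp from the Rfx2 summit, whereas the background line was flat.

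Words of other promoter factors were compared in the same windows. The background windows were centred on H3K4me3 summits, whose distance from the TSS was not matched to that of the Rfx2 summits. Whether window position accounts for differences in these words was not tested. The CCAAT word was present at 27.8% of peaks (22.4 to 33.6%) and 17.9% of the background. The SP/KLF word GGGCGG was present at 47.5% (41.4 to 53.8%) against 37.3%. The cAMP-response word TGACGTC occurred at 13 peaks (4.94%, 2.66 to 8.30%) against 1.92%. The AP-1 word TGANTCA was found at 5 peaks (1.90%, 0.620 to 4.38%), with 2.78% in the background, but at 6 of the 62 Rfx2 peaks away from starts (9.68%, 3.63 to 19.9%). The ETS word CCGGAAG was present at 28 of the 156 peaks that overlapped MOF (17.9%, 12.3 to 24.9%) and at 7 of the 107 that did not (6.54%, 2.67 to 13.0%). The background differed in the same direction, with 10.1% of peaks with MOF and 5.49% of peaks without. All of these are matches of letters and do not show binding.

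Fold enrichment of the 263 peaks, as the authors' peak caller gave it, had a median of 7.27 and ran from 4.16 to 26.97. A few peaks stood above a long tail. When the ranking was cut into 4 equal parts, the first ran from 9.33 to 26.97 and the last from 4.16 to 5.90, and 99 peaks shared their value with another peak. The strongest was at Mast3 on chromosome 8 (26.97, chr8:70792518-70793152), which encodes a microtubule-associated serine/threonine kinase. Its summit lay 241 bp upstream of the TSS. The second was in the 5′ UTR of 1700030J22Rik (26.4), a gene without a known role. Ap1m1 (22.6), a subunit of the AP-1 clathrin adaptor, Mib2 (20.4), a ubiquitin ligase that acts on Notch ligands, and the shared start of Sec16a and 0610009E02Rik (19.3) followed. Sec16a organizes the sites at which cargo leaves the endoplasmic reticulum. None of these first 5 peaks was at a gene of the ciliary lists, where 30 of all 263 peaks were. In the first of the 4 parts 7 of 66 peaks (10.6%) were at such genes, and in the last 7 of 65 (10.8%).

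B9d2 (18.1) of the ciliary transition zone ranked sixth and Ift57 (16.4) of the intraflagellar transport complex eighth. Of the 25 strongest peaks, 4 were at genes of the ciliary lists, beside 30 of all 263. The other 2 of these 4 were Bbs2 (15.3), a subunit of the BBSome, and Ccdc103 (14.1), needed for dynein arms. The Ccdc103 peak was shared with Eftud2, a GTPase of the spliceosome. The remaining strong peaks were at genes of signalling, such as Dyrk1b (17.8), Rap2a (15.6), a small GTPase, and Dusp1 (13.7), a phosphatase of MAP kinases. Others were at Rnf126 (15.9), a ubiquitin ligase, Rpp38 (15.4), a subunit of RNase P, Coq8b (14.8), needed for coenzyme Q synthesis, Dstn (14.5), an actin-depolymerizing factor, Chd4 (13.6) and Rfc5 (13.4). The list further held Churc1 (15.2), Nap1l1 (15.1), Odf2l (13.8), the shared start of Ranbp10 and Tsnaxip1 (13.3) and that of Eno4 and Hspa12a (13.3). The transcription factor genes Rfx1 (14.2) and Jun (13.3) were also among these 25. Of these 25 peaks, 16 overlapped a MOF region, 22 overlapped H3K27ac and 6 had an X-box, where the shares over all 263 peaks were 59.3%, 93.5% and 12.9%. Sec16a, Chd4 and Jun lacked H3K27ac.

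**Figure D2:**
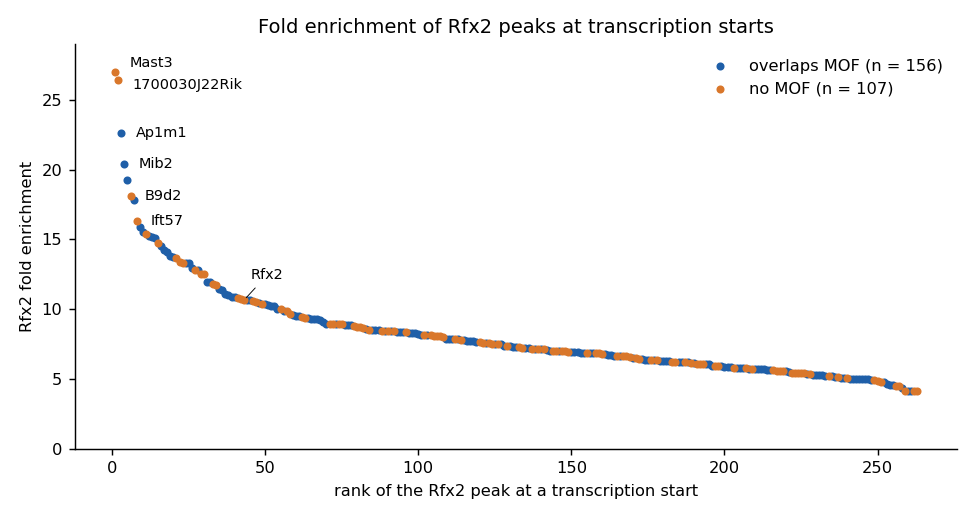
Rfx2 fold enrichment of the 263 peaks at starts, ranked from the highest, with peaks that overlapped a MOF region in blue (n = 156) and the others in orange (n = 107). The first 2 peaks had no MOF, the next 3 (22.6 to 19.3) had it, and from 18.1 down to 4.16 both colours are present.

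RFX genes themselves also had Rfx2 peaks. Of Rfx1 to Rfx8, Rfx1 and Rfx2 had an Rfx2 peak at the start. In the RFX list, which holds 10 genes, these 2 made up 20% (2.52 to 55.6%). That compares with 1.32% of all genes and 2.32% of genes with H3K4me3, and the low end of the interval lay just above 2.32%. The peak at Rfx2 (fold enrichment 10.6) lay 174 bp upstream of the TSS, with the wider X-box shown above 65 bp from the summit, and overlapped no MOF region. The peak at Rfx1 (14.2) lay 237 bp downstream, in an intron, and overlapped a MOF region. The starts of Rfx3, Rfx5 and Rfx7 had H3K4me3 and MOF but no Rfx2 peak within 1 kb. Rfx4 had none of these, Rfx6 had a MOF region alone and Rfx8 had H3K4me3 alone. Kat8, which encodes MOF, had MOF, H3K4me3 and H3K27ac at its start and its nearest Rfx2 summit was 143388 bp away.

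The genes were then grouped by lists written from general knowledge. Over all 24963 genes of chromosomes 1 to 19, 1.32% had an Rfx2 summit within 1 kb of a TSS. Among the 14179 genes with an H3K4me3 peak within 1 kb of a TSS the share was 2.32%, and all 329 genes were among these. Ciliary genes had the highest shares of the larger lists. Of 203 genes in 4 ciliary lists, 30 (14.8%, 10.2 to 20.4%) had an Rfx2 peak, with a median fold enrichment of 7.63 and MOF at 18. The BBSome and transition zone list had 13 of 42 genes (31.0%, 17.6 to 47.1%), led by B9d2, Bbs2, Tctn2 (11.9) and Lztfl1 (11.4). Intraflagellar transport and its motors had 7 of 39 (17.9%, 7.54 to 33.5%), among them Wdr34 (8.497), Ift122 (8.36) and Arl13b (7.87). The Ift74 start had MOF but no Rfx2 peak, and its nearest Rfx2 summit was 437973 bp away. The study names Ift74 among the promoters bound by both, so the list used here differs from the study at this gene. Motile cilium genes had 5 of 56 (8.93%, 2.96 to 19.6%). These were Ccdc103, Ccdc151 (10.04), Foxj1 (8.45), the master regulator of motile cilia, Gas8 (8.17) and Dnaaf5 (5.20). The Foxj1 start had H3K4me3 without H3K27ac or MOF. Centriole and centrosome genes had 5 of 66 (7.58%, 2.51 to 16.8%), including Cep19 (7.27) and Cep41 (6.37).

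Most of the genes were outside the ciliary lists. Of the 329 genes, 290 were in none of the ciliary lists and had no word such as cilium, centrosome, spindle, dynein, kinesin or tubulin in their RefSeq description. Mast3 and Map9 (5.74), which are described as microtubule-associated, count among these 290 because the word microtubule was not searched. So do Cdk20, Enkur, Ccdc113, Tbc1d32 and Pde6d, which have known ties to cilia, so the 290 are not a count of genes without a ciliary role. MOF was overlapped at 18 of the 30 peaks of ciliary genes (60%, 40.6 to 77.3%) and at 138 of the other 233 (59.2%, 52.6 to 65.6%). Median fold enrichment was 7.63 at ciliary genes and 7.22 at the others. Arms of the X-box were found at 22 of the 30 ciliary peaks (73.3%, 54.1 to 87.7%) and at 132 of the others (56.7%, 50.02 to 63.1%), and the intervals overlapped.

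Among the other lists, the ubiquitin, proteasome and SUMO system had 10 of 199 genes (5.03%, 2.44 to 9.05%), an interval whose low end lay just above 2.32%. The call rests on a few genes, since the share was 4.02% (1.75 to 7.77%) with starts within 500 bp and 3.02% (1.11 to 6.45%) with the nearest TSS only, and both intervals include the share of genes with H3K4me3 under the same rule, 2.16% and 1.85%. The shares of the 4 ciliary lists were the same under both. With MOF were Mib2, Rnf126, Psmd13 (10.6), a proteasome subunit, and Ube4b (5.52), and without MOF Rnf40 (12.8), a histone H2B ubiquitin ligase, Fbxw7 (7.48), Rnf5 (7.16) and Cops3 (4.48). Mitochondrial genes outside the respiratory chain and the mitochondrial ribosome had 7 of 138 (5.07%, 2.06 to 10.2%), an interval that includes 2.32%, and 2.90% with the nearest TSS only, against 1.85% of genes with H3K4me3 under that rule. They included Coq8b, the deacetylase Sirt3 (10.6), Lyrm4 (9.51), needed for iron-sulphur clusters, Coq6 (7.03) and Mdh2 (7.01). None of the 112 respiratory chain genes had a peak, which allows a share of up to 2.68%, so a shortage below the background was not detectable.

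Several lists were near the background. Mitochondrial translation had 4 of 133 genes (3.01%, 0.825 to 7.52%), the tRNA synthetases Wars2 (10.4) and Fars2 (9.51), Trit1 (6.90) and Mrpl54 (4.49). Splicing and mRNA processing had 6 of 174 (3.45%, 1.28 to 7.35%), including Eif4a3 (10.9), Hnrnpf (9.89) and Snrpd2 (8.07). Endosome and autophagy genes had 5 of 171 (2.92%), led by Uvrag (8.45). Lipid and cholesterol genes had 3 of 95 (3.16%), including Hmgcs1 (8.97) and Idi1 (5.46) of cholesterol synthesis. DNA repair had 4 of 158 (2.53%, 0.694 to 6.35%), Fanci (8.47), Mbd4 (8.36), Mus81 (7.64) and Xrcc1 (7.40). ER and Golgi transport had 5 of 199 (2.51%), or 1.51% with the nearest TSS only, where genes with H3K4me3 had 1.85%, led by Ap1m1 and Sec16a. Chromatin and transcription had 6 of 262 (2.29%), led by Chd4, Cbx8 (10.4), Pcgf1 (8.497) and Ing1 (7.33). DNA replication and the cell cycle had 3 of 176 (1.70%), Rfc5, Pole3 (11.4) and Cdk4 (8.74). With the nearest TSS only, 1 of the 176 (0.568%) was left, against 1.05% of all genes and 1.85% of those with H3K4me3, since the Rfc5 and Pole3 summits were nearer to Gm15728 and 4933430I17Rik. Cytosolic translation had 1 of 151, Eif2s1 (5.31), in the Wnt list Csnk1d (5.90) was the 1 gene of 60, and in the Notch list Mib2 the 1 of 40.

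No gene of the epidermal lineage list had an Rfx2 peak at its start. With 0 of 70 genes a share of up to 4.29% is allowed, which is above the background. In the Hedgehog list 0 of 21 genes had one, which allows up to 14.3%. H3K4me3 was also looked up at the start of marker genes of cell types, which does not show which cells were present. It was found at 5 of 8 keratinocyte markers, 3 of 4 fibroblast markers, 2 of 4 melanocyte markers, 2 of 4 markers of multiciliated cells, 0 of 3 endothelial and 0 of 4 immune markers. H3K27ac was found at 2 of the 8 keratinocyte and 2 of the 4 melanocyte markers and at none of the fibroblast, multiciliated, endothelial or immune markers. The promoter mark was absent at Krt1, Krt10 and Lor of the outer layers, although the study stained KRT1 in newborn epidermis. A missing mark therefore does not show that a cell type was missing. Which cells carried the Rfx2 peaks was not tested.

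**Figure D3:**
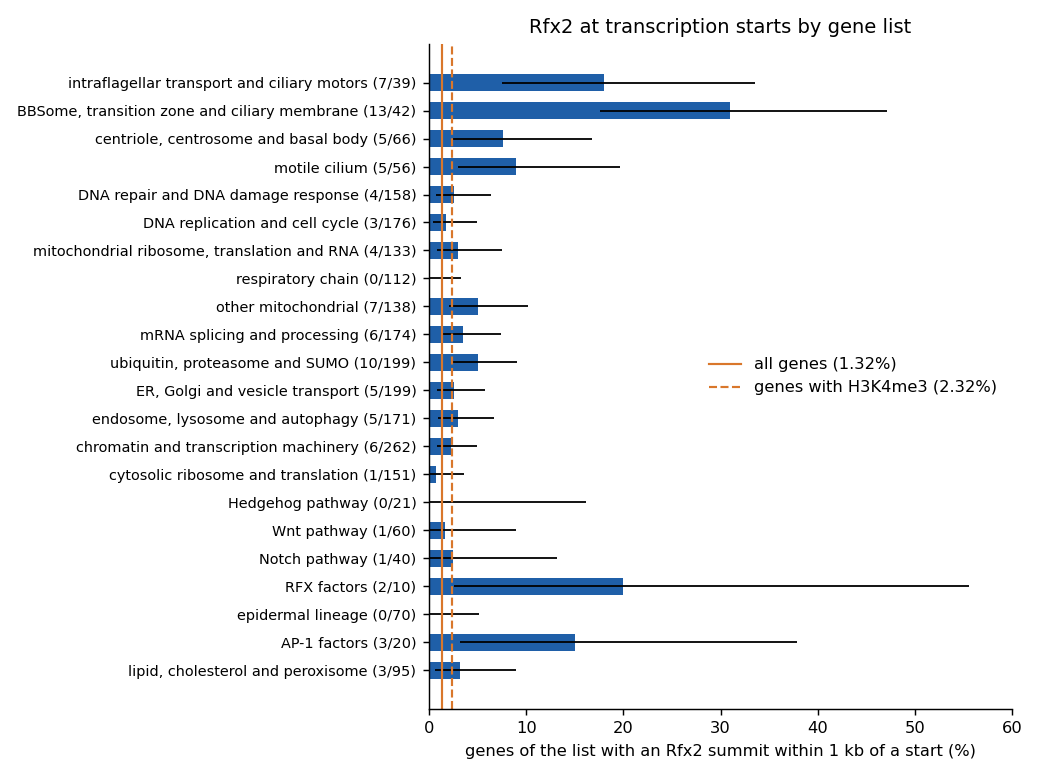
Share of the genes in each list with an Rfx2 summit within 1 kb of a TSS, in percent, with exact 95% intervals as black lines and counts in brackets. Orange lines mark all genes (1.32%) and genes with H3K4me3 (2.32%). The intervals of the 4 ciliary lists lie above both lines, as do those of the AP-1, RFX and ubiquitin lists. Those of the ubiquitin (from 2.44%), centriole (from 2.51%) and RFX (from 2.52%) lists do so only narrowly.

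Of 20 genes in the AP-1 list, Jun (13.3), Jund (8.91) and Fosb (8.13) had Rfx2 at the start (15%, 3.21 to 37.9%), against 1.32% of all genes and 2.32% of those with H3K4me3. With starts within 500 bp Jund was lost, and the share of 10% (1.23 to 31.7%) had an interval that includes the 2.16% of genes with H3K4me3 under that rule. None of these 3 peaks overlapped MOF, although the wider H3K4me3 peaks that held Jun and Fosb did, and none held an X-box or a single arm within 100 bp of the summit. Over all 263 peaks, 59.3% overlapped MOF, 58.6% had an arm and 20.9% had either form of the X-box. With 3 peaks, a difference from these shares cannot be judged. A further summit lay 1269 bp from the TSS of Junb, just outside the limit, and also had no MOF.

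Families of related gene symbols were counted after the values had been seen, over protein-coding genes, and their shares are descriptions, to be read beside the 1.32% of all genes and 2.32% of genes with H3K4me3. Heat shock and DnaJ chaperones had 9 of 71 genes at 8 peaks, or 14.3% (6.75 to 25.4%) of the 63 with H3K4me3. They were Hspa12a, Dnajc16 (10.7), Hsph1 (8.44), Dnajc7 (7.08), Hspa4l (6.73), Dnajc1 (6.34), Dnaja1 (6.20) and the neighbours Hspa1a and Hspa1l (6.20), which shared a peak. Hspa1a has a near-identical neighbouring copy, so reads there may have been split between them. The coenzyme Q genes Coq8b, Coq6 and Coq7 (4.58) made up 3 of 11 family members. The kinases Dyrk1b, Dyrk1a (8.96) and Dyrk3 (5.45) were 3 of 5, and Csnk1g2 (12.8), Csnk1g1 (9.33) and Csnk1d were 3 of 6 casein kinase 1 genes. Enzymes of tRNA modification were represented by Trmt10a (7.69), Trmt5 (7.69), Trit1 and Trdmt1 (4.997), 4 of 17. By comparison B9d1 (6.85), B9d2, Tctn1 (5.82) and Tctn2 made up 4 of the 5 tectonic and B9 genes. Of 91 cytosolic ribosomal protein genes 0 had a peak, which allows a share of up to 3.30% and so is not a shortage that could be detected.

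The genes were also classed by words in their RefSeq descriptions, and these classes share genes with the lists. Among genes with H3K4me3, 20 of 472 described as kinases had an Rfx2 peak (4.24%, 2.61 to 6.47%), as did 20 of 428 with WD repeats, coiled coils or tetratricopeptides (4.67%, 2.88 to 7.12%), 18 of 277 with words of the cilium, centrosome, spindle or their motors (6.498%, 3.90 to 10.1%) and 16 of 450 with words of ubiquitin or the proteasome (3.56%, 2.05 to 5.71%). The intervals of the first 3 classes lay above 2.32%, but 6 of the 20 genes with such repeats and 9 of the 18 with ciliary words were in the ciliary lists. Without the genes of those lists the shares were 3.42% (1.88 to 5.68%) and 4.84% (2.24 to 8.99%), and that of kinases was 4.07% (2.47 to 6.28%). With the same genes left out of the background its share was 2.14%, which lay inside the interval of the repeat class and below those of the other 2. Kinases were led by Mast3, Dyrk1b, Csnk1g2 and Cdk20 (9.60), the last a kinase linked to cilia. RNA processing genes had 13 of 357 (3.64%, 1.95 to 6.15%), and 11 of these 13 (84.6%, 54.6 to 98.1%) were at peaks with MOF. Over all 329 genes the share was 61.4%, inside that interval. Zinc finger genes, with 9 of 597 (1.51%, 0.692 to 2.84%), and transmembrane proteins, with 5 of 283 (1.77%), were not above the background. In all, 123 of the 329 genes were in no list and no class.

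MOF overlapped 156 of the 263 peaks by at least 1 bp (59.3%, 53.1 to 65.3%). The background of 13636 H3K4me3 peaks overlapped MOF in 38.1% of cases. The level depended on which MOF regions were counted. With the 50% of MOF regions of highest score the shares were 38.02% (32.1 to 44.2%) and 22.9%, and with only the inner blocks that the MOF list gives within each region 46.4% (40.2 to 52.6%) and 35.5%. These set narrow Rfx2 peaks against wide H3K4me3 peaks. Compared like with like, 64.3% (58.1 to 70.1%) of the H3K4me3 peaks that held the Rfx2 peaks overlapped MOF, counted once per Rfx2 peak. With the higher-scoring MOF regions this share was 41.8% (35.8 to 48.04%), and with the inner blocks 63.5% (57.4 to 69.3%). Of the 62 Rfx2 peaks away from starts, 18 overlapped MOF (29.03%, 18.2 to 41.9%). Most of these 62 also overlapped H3K4me3 (49, 79.0%, 66.8 to 88.3%). Their H3K4me3 peaks had a median width of 839 bp against 1380 bp at starts, and the MOF shares were not matched for width. Counted by gene, 202 of the 329 genes were at a peak with MOF and 127 at a peak without. Neighbouring genes at 1 peak are not independent of each other.

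MOF was more frequent at wide H3K4me3 peaks, so the comparison was repeated by width. For H3K4me3 peaks under 1000 bp, MOF was present at 20 of 45 with Rfx2 (44.4%, 29.6 to 60.003%) and 21.8% without. From 1000 bp to under 1500 bp the shares were 66.4% (57.0 to 74.9%) of 116 and 42.6%, and at 1500 bp or more 70.6% (60.7 to 79.2%) of 102 and 55.3%. In each class the interval with Rfx2 lay above that without.

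**Figure D4:**
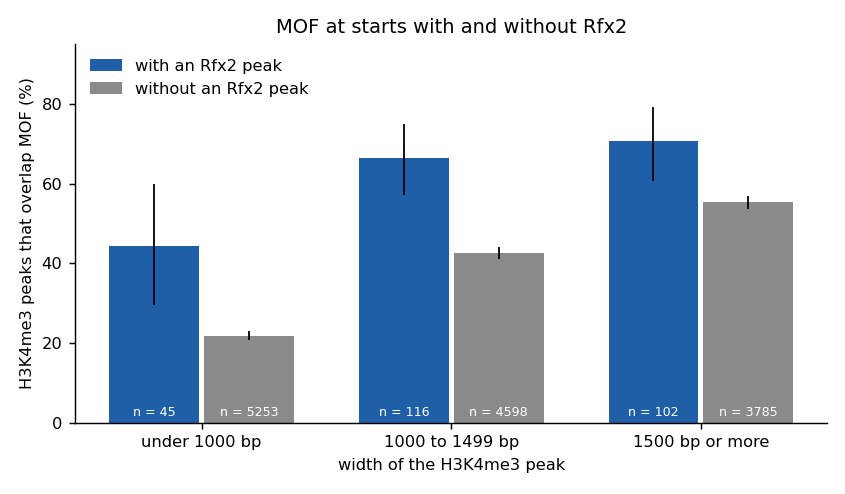
Share of H3K4me3 peaks at starts that overlapped a MOF region, in percent, for peaks that held an Rfx2 peak (blue) and peaks without (grey), in 3 classes of H3K4me3 width, with exact 95% intervals as black lines. MOF was more frequent with Rfx2 in each class, from 44.4% against 21.8% in the narrowest to 70.6% against 55.3% in the widest.

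Rfx2 fold enrichment did not separate peaks with MOF from peaks without. Its median was 7.32 (quartiles 5.86 and 9.34) with MOF and 7.22 (6.05 and 8.93) without, a ratio of 1.01. From the strongest to the weakest of these 4 parts, MOF was overlapped by 62.1%, 59.1%, 53.0% and 63.1%. The wider X-box, in contrast, was found at 16 of 66 peaks (24.2%, 14.5 to 36.4%) of the strongest part and at 5 of 65 (7.69%, 2.54 to 17.0%) of the weakest, and the intervals overlapped. An X-box was present at 9.62% (5.48 to 15.4%) of peaks with MOF and 17.8% (11.04 to 26.3%) without, again with overlapping intervals.

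The MOF regions at these starts were described by their score and width. Their median score, whose scale is not stated in the sources used here, was 672 at the 156 peaks and 651 in the background, and their median width was 1051 bp. Each deposited MOF region held 1 or more inner blocks, as broad peak calls do. The Rfx2 summit lay inside the MOF region at 149 peaks and inside an inner block at 95 (36.1%, 30.3 to 42.2%). The highest score, 3401, was at the shared start of Ccdc151 and Prkcsh. For the 18 peaks with MOF away from starts the median score was 8072, but the spread was wide. The quartiles were 590.5 and 23767 and the highest score was 65333, where the background reached 13956. Some of the 18 thus had ordinary scores, and regions of extreme score were not filtered out.

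Active marks covered nearly all of the starts. An H3K4me3 peak was overlapped by 263 of 263 peaks and H3K27ac by 246 (93.5%, 89.9 to 96.2%), and 75.6% of the background had H3K27ac. The difference was mainly at starts without MOF, where 98 of 107 Rfx2 peaks (91.6%, 84.6 to 96.1%) and 66.01% of the background had H3K27ac. With MOF these shares were 94.9% (90.1 to 97.8%) and 91.3%. H3K4me3 peaks at the Rfx2 peaks were wider, with a median of 1380 bp against 1168 bp, and their median fold enrichment was 8.44 against 7.73. The choice of an overlapping peak favours wide ones.

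Summits lay on both sides of the TSS. The median distance was 0 bp, with quartiles at 202 bp upstream and 110 bp downstream, and 204 of the 263 summits were within 250 bp. Of all summits, 131 (49.8%) were upstream of the nearest TSS, 76 (28.9%) in a 5′ UTR, 30 in an intron, 16 in a coding exon and 9 in an exon of a non-coding transcript. MOF was overlapped by 77 of the 131 peaks upstream and 79 of the 132 peaks at or downstream of the TSS. The summits just inside the limit were at Mus81 (888 bp, fold enrichment 7.64, no MOF) and Mir6976 (870 bp, 6.64, no MOF). The 3 just outside were nearest to Nr2f2 (1251 bp, 5.02, MOF), Junb (1269 bp, 6.64, no MOF) and Dixdc1 (1493 bp, 4.55, MOF).

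**Figure D5:**
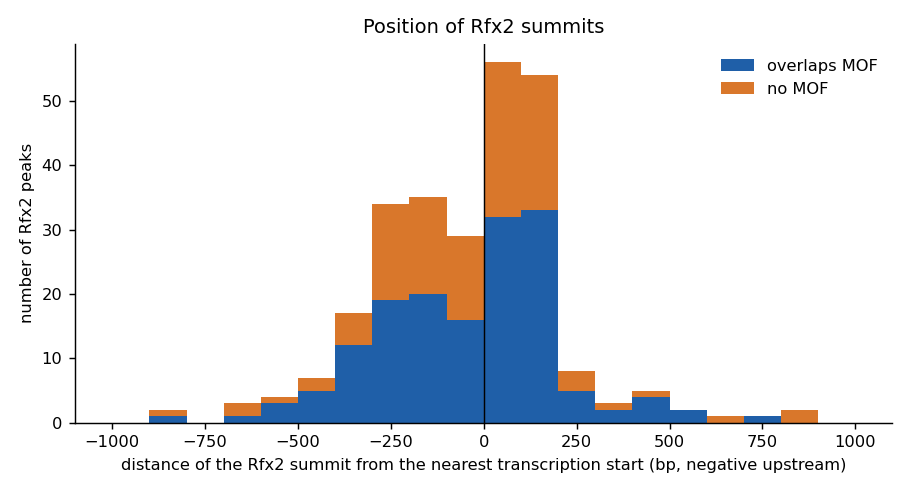
Number of Rfx2 summits by distance from the nearest TSS in bins of 100 bp, negative upstream, stacked for peaks with MOF (blue) and without (orange). Summits gathered on both sides of the TSS, with 204 of 263 within 250 bp.

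Some summits lay near pairs of genes. At 65 of the 263 peaks (24.7%, 19.6 to 30.4%) 2 genes on opposite strands started within 1 kb of each other, at least 1 of them within 1 kb of the summit, against 13.3% of the background. Their starts were a median of 195 bp apart, and the summit lay between the starts at 23 of the 65 peaks. Median fold enrichment was 7.27 at pairs and 7.29 at the other peaks. MOF was overlapped by 47 of the 65 peaks (72.3%, 59.8 to 82.7%) and by 109 of the other 198 (55.1%, 47.8 to 62.1%). By H3K4me3 peak, MOF was at 78.5% (66.5 to 87.7%) of pairs with Rfx2 and 53.3% (51.0 to 55.6%) of pairs without. Away from pairs it was at 59.6% (52.4 to 66.5%) with Rfx2 and 35.8% without.

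Both members of the strongest pairs are named here. Among the strongest with MOF were Sec16a and 0610009E02Rik (starts 708 bp apart), Eftud2 and Ccdc103 (249 bp), Ranbp10 and Tsnaxip1 (536 bp), Hspa12a and Eno4, whose 5′ ends overlap, Pole3, a subunit of DNA polymerase epsilon, and 4933430I17Rik (355 bp), and Sirt3 and Psmd13 (85 bp). Those without MOF were Rfc5 and Gm15728 (99 bp), Ccdc189 and Rnf40 (103 bp), Cinp and Tecpr2 (119 bp), Crip2 and F930026P19Rik (96 bp), and Enkur and Thnsl1 (359 bp). Other pairs, named after their values were seen held a gene of the ciliary lists. Nphp4 of the transition zone was paired with Kcnab2 (a potassium channel subunit), Ift122 with the DNA glycosylase Mbd4, Tmem138 with Cyb561a3 and Cep19 with Pigx. To which gene of a pair a peak belongs cannot be told apart here.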

How the data were processed

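MOF ChIPseq and Rfx2, H3K4me3 and H3K27ac Cut&Run peak lists of mouse epidermis were used. Per the labels and the study's methods, the authors aligned reads with Bowtie2 to mm10 and called peaks with MACS2 for each library. A control library was not given in the sources used here. The deposited Rfx2, H3K4me3 and H3K27ac lists give a fold enrichment, that is a ratio, and a −log10 q-value for each peak, as the authors' peak caller wrote them. The lowest −log10 q-value for Rfx2 was 1.32. The deposited MOF list gives regions with a score and inner blocks, and the score was used only within that list.

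Summits within 1 kb of a curated TSS (RefSeq annotation of GRCm38.p6) were kept. Overlap meant at least 1 bp. Sequence was read from GRCm38.p6, which is mm10, with pysam 0.24.0, and the remaining steps used Python 3.11.15 with pandas 2.3.3 and scipy 1.17.1. Overlaps, start assignment and the X-box search were tested on simulated data, with bedtools 2.31.1 as the reference for overlaps. The X-box was the degenerate form used for RFX factors. Shares carry exact 95% intervals, and for 0 of n the limit is 3 of n. As no list had a replicate, no p-value was computed.

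The peaks, gene lists and tests were chosen with earlier results of these data known. Gene lists were written from general knowledge, and older symbols were resolved through RefSeq synonyms. Named are the 25 strongest peaks, up to 4 genes for each list or class by fold enrichment and MOF, the pairs at the 12 strongest paired peaks, the 3 peaks on each side of the limit, loci of the study, the RFX genes and Kat8. Some items that this rule would name are counted but not reported here by name. Other genes named were picked once values were known. The window around the TSS, the overlap rule, the peak subsets and the X-box search were varied.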

Additional observations from a re-analysis of the deposited data

How the results depend on the processing

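No paired analysis was possible because 1 peak list per antibody was used. Shares are called moved when they left the 95% interval of the value reported. Of 104 alternatives for counts and shares, 96 left the value within that interval, or within 1.5 times for counts, and 8 moved it. The ratio of median fold enrichment was between 0.998 and 1.04 under its 3 alternatives, for which no useful yardstick exists. The share of Rfx2 peaks at starts that overlapped MOF became 65.4% with a gap of up to 1 kb, 38.02% with the 50% of MOF regions of highest score and 46.4% with inner MOF blocks only, an alternative added after seeing the data. The background under the same rules was 41.1%, 22.9% and 35.5%. A gap can only raise the share, and fewer or shorter regions can only lower it. The share of these peaks with an X-box was 5.32% within 50 bp of the summit, 26.996% within 250 bp and 21.3% in the whole peak, where the background was 0.301%, 1.36% and 2.41%. The share at pairs of genes was 19.1% for protein-coding genes only, against 7.61% of the background. With the nearest TSS only, the share of the cytosolic translation list fell to 0%, since 1 gene was lost. The wider X-box, the TSS set without microRNA genes and the description classes without ciliary genes were also added after seeing the data. Differences between lists of few genes are limited by counting error, and the lists give no read counts.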
